A study of Mus musculus with 4 samples.

Results

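The 7 enzymes that carry mevalonate to squalene and its epoxide, Mvk, Pmvk, Mvd, Idi1, Fdps, Fdft1 and Sqle, were measured in mouse liver by 1 probe each. They were taken as the probes whose platform annotation names only that gene, 7 of 13544 named genes with a value on every array. The RNA came from livers of male C57Bl/6J mice, a standard inbred strain. It was amplified and hybridised to 4 two-colour oligonucleotide arrays. On each array the RNA from 1 diet and duration carried Cy5 and the RNA from mice on standard chow carried Cy3. The diets were an atherogenic diet, called plain below, and an atherogenic diet combined with high fat, each given for 6 or 24 weeks. The chow mice had the matching duration, except on the plain 6-week array, where the labels give no duration of chow. The sources used here do not give the composition of the diets, the age of the mice, whether an RNA came from 1 animal or a pool, or whether arrays shared a chow sample. There was 1 array for each condition and no dye-swapped array, so dye preferences of single probes and differences between diet and chow cannot be told apart. The values are log2 ratios of diet over chow, with the direction taken from the dyes, so 0 means no difference and -1 means 2-fold below chow. A ratio carries no level, so neither the abundance of a transcript nor the presence of liver-defining markers could be read from these values. The base of the deposited logarithms is not stated; it was inferred to be 10 from how widely the values spread, and every fold depends on that.

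Animal cells build cholesterol from acetyl-CoA by way of mevalonate. Mevalonate is phosphorylated and decarboxylated to isopentenyl diphosphate, the isoprene unit, which is isomerised and condensed to farnesyl diphosphate. Farnesyl diphosphate is the branch point to cholesterol on the one side and to prenylated proteins, ubiquinone and dolichol on the other. A pair of farnesyl diphosphates is joined to squalene, which is then oxidised to the epoxide that closes into the first sterol. In liver these genes are known targets of the transcription factor SREBP-2, which is activated when cellular sterol is low and held back when sterol is plentiful, and which acts together with NF-Y and Sp1.

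The first comparison asks whether these transcripts differed from chow over the 4 diet arrays. Of the 7, 4 fell (Idi1, Fdps, Sqle and Pmvk) and none rose. Over all genes 785 of 13544, or 5.8%, fell by the same rule, and 849, or 6.27%, rose. The rule was an adjusted p under 0.05 in limma, a linear model with a spread moderated across genes, for the mean of the 4 arrays against 0. The median of the 7 mean log2 ratios was -0.39, against 0.00 for all genes. The steps did not move as a block: Mvk and Fdft1 lay near chow, and Mvd lay above it on every array. In bulk liver RNA, fewer cells of a type and less RNA per cell cannot be told apart.

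**Figure D1:**
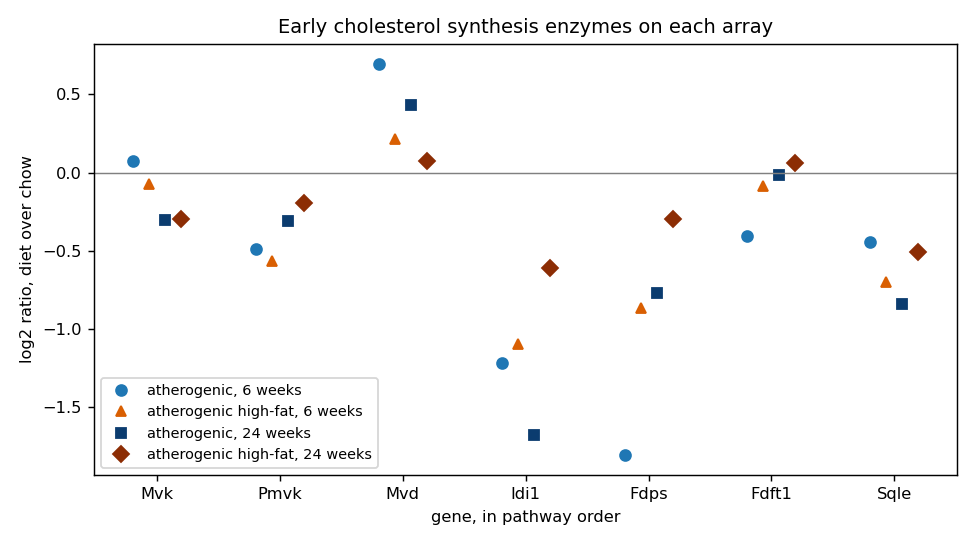
Log2 ratio of diet over chow (vertical axis) for the 7 genes in pathway order (horizontal axis), 1 point for each of the 4 arrays. Idi1, Fdps, Sqle and Pmvk lie below 0 on all arrays, Mvd lies above 0 on all, and Idi1 and Fdps reach the lowest values, -1.68 and -1.81.

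The first 3 enzymes turn mevalonate into isopentenyl diphosphate. Mvk, mevalonate kinase, stood at log2 ratios of 0.08 and -0.31 after 6 and 24 weeks of the plain diet, and at -0.07 and -0.30 with the high-fat diet. The 6-week values lay on both sides of 0 and both 24-week values lay below it. Its mean, -0.15 ± 0.10 (limma SE, 4 arrays), did not pass (limma adjusted p = 0.341; 95% interval -0.38 to 0.08). Pmvk, phosphomevalonate kinase, stood at -0.49 and -0.31 after 6 and 24 weeks of the plain diet, and at -0.57 and -0.19 on the high-fat one. All 4 arrays were below chow, with both 6-week arrays lower than both 24-week arrays. Pmvk fell by 0.39 ± 0.09 on the log2 scale, 1.31-fold, just inside the threshold (limma adjusted p = 0.0454).

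Mvd, the decarboxylase that makes isopentenyl diphosphate, went the other way. It stood at 0.70 and 0.43 after 6 and 24 weeks of the plain diet, and at 0.22 and 0.07 on the high-fat one. All arrays were above chow, and both plain-diet arrays were above both high-fat arrays. The mean of 0.35 ± 0.12 did not pass (limma adjusted p = 0.101; 95% interval 0.07 to 0.64). It did pass when diet and duration were terms of the model (limma adjusted p = 0.00746) or duration was a random block (0.0205). These settings also passed many more genes, 5132 and 4447 of 13544, against 1634 in the main fit. The first of them leaves 1 residual degree of freedom.

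Idi1, the isomerase that turns isopentenyl into dimethylallyl diphosphate, had the lowest mean of the 7. Its log2 ratios were -1.22 and -1.68 after 6 and 24 weeks of the plain diet, and -1.10 and -0.61 on the high-fat one. The plain 24-week array was the lowest and the high-fat 24-week array the highest, so both extremes came from the longer feeding. On the plain 24-week array Idi1 was at 3.20-fold below chow, and only 0.31% of genes had a lower ratio. On the high-fat 24-week array it was 1.52-fold below chow, with 4.07% of genes lower. Idi1 fell by 1.15 ± 0.17 on average, 2.22-fold (limma adjusted p = 0.0114).

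Fdps, farnesyl diphosphate synthase, was the most variable member. Its log2 ratios were -1.81 and -0.77 after 6 and 24 weeks of the plain diet, and -0.86 and -0.30 on the high-fat one. The plain 6-week array stood apart at 3.50-fold below chow, where 0.185% of genes were lower, and the high-fat 24-week array was 1.23-fold below chow. The SD over the 4 arrays was 0.63, against 0.44 for Idi1, 0.27 for Mvd and 0.17 to 0.20 for the other 4 genes. Fdps fell by 0.93 ± 0.23, 1.91-fold (limma adjusted p = 0.0453; 95% interval -1.48 to -0.39). The call was lost without the plain 24-week array (limma adjusted p = 0.149) or the high-fat 6-week array (0.0922), and without the plain 6-week array the mean was -0.64 (0.0428).

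The last steps make squalene and its epoxide. Fdft1, squalene synthase, the first step committed to sterols, stood at -0.41 and -0.01 after 6 and 24 weeks of the plain diet, and at -0.09 and 0.06 on the high-fat one. The plain 6-week array lay farthest from 0, and the mean of -0.11 ± 0.10 did not pass (limma adjusted p = 0.495; 95% interval -0.36 to 0.13). Sqle, squalene epoxidase, an oxygen-dependent and rate-limiting step of the sterol branch, stood at -0.44 and -0.84 after 6 and 24 weeks of the plain diet, and at -0.70 and -0.51 on the high-fat one. Its values were close together, all below chow, and neither diet nor duration ordered them. Sqle fell by 0.62 ± 0.10, 1.54-fold (limma adjusted p = 0.0139).

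**Figure D2:**
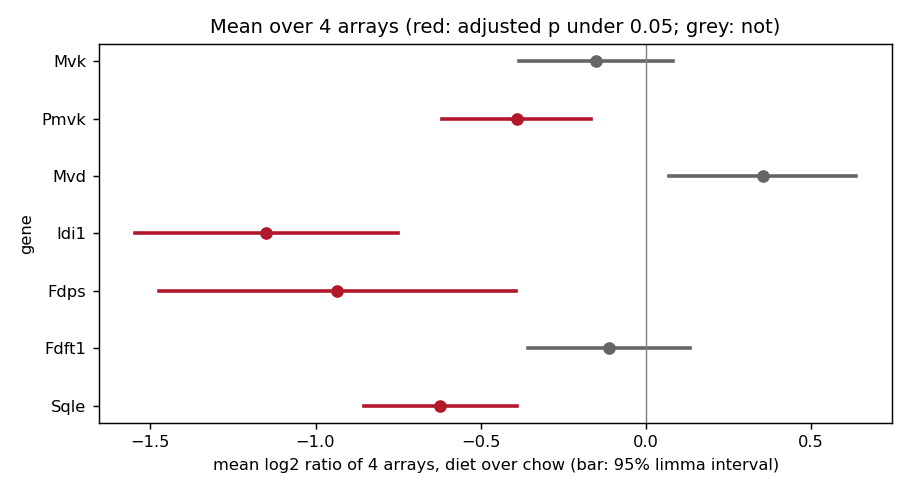
Mean log2 ratio of diet over chow over the 4 arrays (horizontal axis) for each gene (vertical axis), with 95% limma intervals; red marks an adjusted p under 0.05. Idi1 at -1.15, Fdps at -0.93, Sqle at -0.62 and Pmvk at -0.39 passed, while Mvk, Fdft1 and Mvd did not.

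Ordered by mean ratio, the genes ran Idi1, Fdps, Sqle, Pmvk, Mvk, Fdft1, Mvd. Most neighbours in this order did not differ beyond their spread: Idi1 was below Fdps on 3 of 4 arrays (mean difference 0.22, SD 0.62), and Fdps below Sqle on 2 of 4. Sqle was below Pmvk on 3 of 4 arrays, with a mean difference of 0.23 and an SD of 0.25. Pmvk was below Mvk on 3 of 4 (0.24, SD 0.34), and Mvk below Fdft1 on 2 of 4. Mvd stood above its neighbour Fdft1 on all 4 arrays, by 0.47 on average, although this gap was about the size of its SD of 0.46. Of the 7 genes 4 were below 0 on all 4 arrays, as were 20% of all genes tested, and 1 was above 0 on all, as were 20.7%.

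The calls rested on few arrays. Without the plain 24-week array none of the 4 passed (limma adjusted p of 0.0519 for Idi1, 0.0723 for Sqle, 0.149 for Fdps and 0.134 for Pmvk), and over all genes 284 passed instead of 1634. Without the high-fat 6-week array 1 passed, Idi1 (0.0316), with Sqle at 0.0505, Fdps at 0.0922 and Pmvk at 0.148. Pmvk also lost its call without either of the other arrays (0.0977 without the plain 6-week array, 0.0784 without the high-fat 24-week array). The sizes moved less, and Idi1 lay between -1.33 and -0.97 in these sets of 3 arrays.

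Promoters are shown for Idi1, which fell the most, Mvd, the gene with the highest ratios, and Mvk, which lay near chow. All 3 hold boxes for the partners of SREBP-2. They were chosen with their boxes and ratios known, so they cannot show whether boxes and ratios go together. RefSeq's promoter table (GRCm38.p6) matched 4 of the 7 genes, Pmvk with 2 start sites. The sequences are the 250 bases before the transcription start, 5′ to 3′ on the gene's strand, with capitals for NF-Y boxes (CCAAT, or ATTGG on the opposite strand) and Sp1 boxes (GGGCGG, or CCGCCC on the opposite strand). Positions count back from the start, with -1 the last base before it. The Idi1 window is chr13:8885356-8885605 (+ strand), the Mvd window chr8:122443423-122443672 (- strand) and the Mvk window chr5:114444019-114444268 (+ strand).
Idi1: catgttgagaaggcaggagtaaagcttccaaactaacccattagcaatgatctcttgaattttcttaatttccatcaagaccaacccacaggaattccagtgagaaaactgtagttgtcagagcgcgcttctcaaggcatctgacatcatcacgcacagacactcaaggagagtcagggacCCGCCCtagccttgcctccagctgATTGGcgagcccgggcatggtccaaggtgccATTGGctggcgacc
Mvd: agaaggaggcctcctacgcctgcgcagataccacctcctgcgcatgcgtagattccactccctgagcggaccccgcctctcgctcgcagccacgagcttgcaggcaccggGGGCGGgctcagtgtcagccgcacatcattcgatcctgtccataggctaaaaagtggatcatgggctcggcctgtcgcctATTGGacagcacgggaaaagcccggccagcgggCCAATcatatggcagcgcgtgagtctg
Mvk: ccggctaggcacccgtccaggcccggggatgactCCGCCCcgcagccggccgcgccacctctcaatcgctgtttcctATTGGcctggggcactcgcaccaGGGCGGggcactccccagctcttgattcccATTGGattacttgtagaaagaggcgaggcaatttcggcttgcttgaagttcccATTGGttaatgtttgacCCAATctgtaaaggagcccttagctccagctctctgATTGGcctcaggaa

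Idi1 had NF-Y boxes starting at -45 and -14, both on the opposite strand, and an Sp1 box at -69. Mvd had NF-Y boxes at -60 and -27 and an Sp1 box at -140. Mvk had 5 NF-Y boxes, 4 of them on the opposite strand at -173, -120, -67 and -14, each 53 bases from the next, and 1 on the gene's strand at -50, besides Sp1 boxes at -216 and -150. The first start site of Pmvk had 1 NF-Y box, at -136, and the second had no match. These windows are chr3:89454291-89454540 and chr3:89459321-89459570, and the bases between them were not searched. Whether either window is the promoter of the main Pmvk transcript was not checked. The lack of a match in the second window says nothing about that promoter. At least 1 NF-Y box was found in 33.8% of the 32851 promoters of the table, at least 2 in 10.1% and at least 5 in 0.213%; an Sp1 box was found in 32.7%, and both kinds in 11%. The letters TCACNCCAC, a core of the sterol regulatory element to which SREBP binds, were searched on both strands too. They were not in these 5 windows, and were in 1.05% of all promoters. The motifs did not overlap one another in the windows printed.

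**Figure D3:**
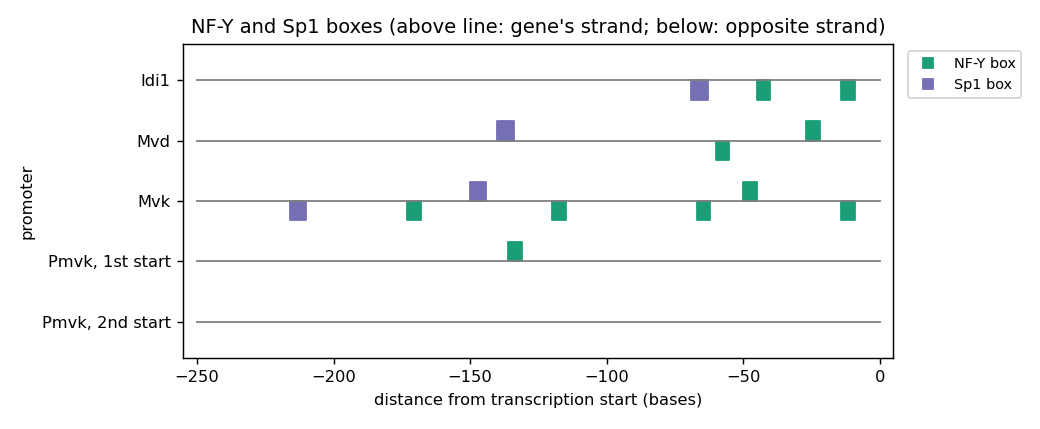
NF-Y boxes (green) and Sp1 boxes (purple) in the 250 bases before the transcription start, by distance from it (horizontal axis, bases), for 5 start sites of 4 genes (vertical axis); boxes above a line are on the gene's strand, those below on the opposite strand. Mvk holds 5 NF-Y boxes, Idi1 and Mvd hold 2 each, and the second start of Pmvk holds none.

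The second comparison sets the high-fat diet against the plain one. The difference is high-fat minus plain atherogenic diet, averaged over both durations. Only Fdps passed: it was higher with high fat by 0.71 ± 0.16, or 1.63-fold (limma adjusted p = 0.0407), with mean log2 ratios of -1.29 on the plain diet and -0.58 on the high-fat diet. It was higher by 0.94 at 6 weeks and by 0.47 at 24 weeks, so that its distance from chow was smaller with high fat at both times. Over all genes 504 of 13544, or 3.72%, were higher by this rule and 962, or 7.1%, were lower. The model leaves 1 residual degree of freedom, and the call ended with arrays scaled to a common spread (0.29; adjusted p = 0.14) or without the duration term (adjusted p = 0.285).

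Of the other 6 genes none passed. Idi1 was higher with high fat by 0.59 ± 0.22 on average (limma adjusted p = 0.117), but the pairs were unlike, 0.12 at 6 weeks and 1.07 at 24 weeks. Mvd was lower by 0.42 ± 0.14 (limma adjusted p = 0.0895), by similar amounts in each pair, -0.48 at 6 weeks and -0.36 at 24 weeks. Idi1 and Fdps, the members lowest on the plain diet, and Mvd, the highest, all lay nearer chow with high fat. The spread over all probes was also narrower on the high-fat arrays (SD 0.37 and 0.39) than on the plain ones (0.53 and 0.46). These 3 genes were singled out by their plain-diet values, so this is a description and not a test. Plain and high-fat means were -0.64 and -0.60 for Sqle and -0.40 and -0.38 for Pmvk. They were -0.21 and -0.01 for Fdft1 and -0.11 and -0.18 for Mvk. Fdft1 differed by 0.32 at 6 weeks and 0.07 at 24 weeks. Sqle was -0.26 at 6 weeks and 0.33 at 24 weeks, Pmvk -0.08 and 0.12, and Mvk -0.15 and 0.01, so these 3 had no common sign.

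**Figure D4:**
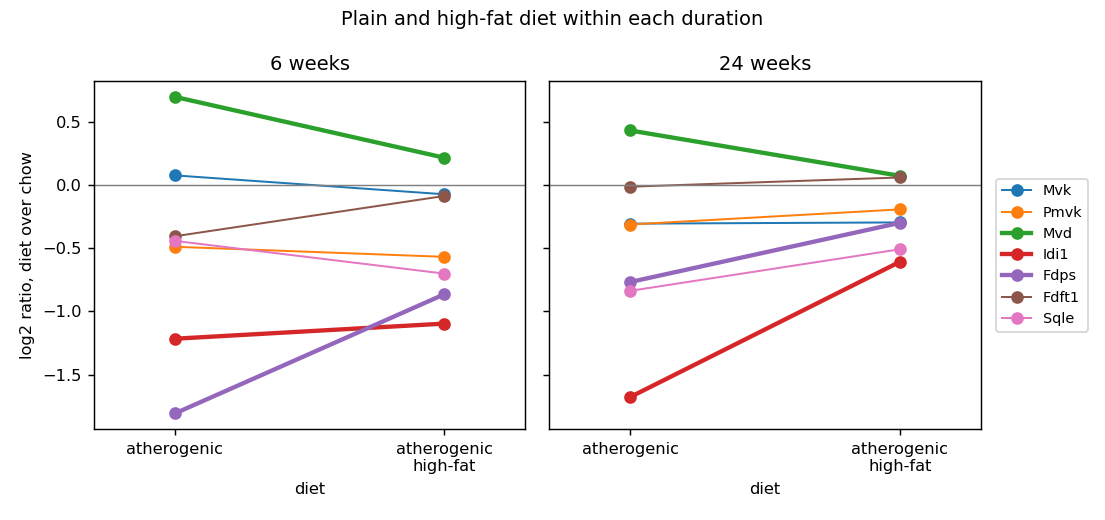
Log2 ratio of diet over chow (vertical axis) on the plain and the high-fat atherogenic diet (horizontal axis) at 6 weeks (left) and 24 weeks (right), with 1 line for each gene and thick lines for Fdps, Idi1 and Mvd. Fdps climbs from -1.81 to -0.86 at 6 weeks and from -0.77 to -0.30 at 24 weeks, Mvd comes down at both times, and Idi1 climbs mainly at 24 weeks.

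The third comparison asks what the longer feeding changed, as 24 minus 6 weeks averaged over both diets. None of the 7 genes passed, nor did any of the 13544 (0%, limma); at an unadjusted p under 0.05 there were 1328 genes, among them 1 of the 7, Fdps. Fdps was higher at 24 weeks by 0.80 ± 0.16 (limma adjusted p = 0.269), by 1.04 on the plain diet and 0.56 with high fat. Mvk was lower by 0.30 ± 0.14 (limma adjusted p = 0.543), by -0.38 and -0.22. Pmvk and Fdft1 were higher by 0.28 and 0.27, and Mvd was lower by 0.20, each with the same sign in both diets. Idi1 moved in opposite directions, -0.46 on the plain diet and 0.49 with high fat, as did Sqle (-0.40 and 0.19), so their average differences of 0.01 and -0.10 describe neither diet.

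Other genes of sterol metabolism show where the early enzymes stand. Of 11 listed enzymes after squalene epoxide 9 were measured. Of these 4 fell and none rose: Dhcr7, the last reductase of the pathway (-1.57 ± 0.10), Tm7sf2, a sterol C14 reductase (-1.25 ± 0.11), Ebp, a sterol isomerase (-0.79 ± 0.12), and Msmo1, a sterol C4 oxidase (-0.58 ± 0.10). Their list median was -0.57, against -0.39 for the early enzymes. Over all genes 5.8% fell. Sc5d, a late desaturase, was higher with high fat by 0.75 ± 0.14 (limma adjusted p = 0.0262), the call that Fdps also had. The 3 enzymes that lead from acetyl-CoA to mevalonate were not analysed here.

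The branches that leave the pathway at isopentenyl and farnesyl diphosphate, to longer isoprenoids, ubiquinone, dolichol and prenylated proteins, had 7 of 12 genes measured. By limma none passed for diet over chow, and 2 had an unadjusted p under 0.05; 6 of 7 lay above 0, with a median of 0.17. Ggps1, which uses the product of Fdps to make geranylgeranyl diphosphate, stood at 0.58 and 0.11 after 6 and 24 weeks of the plain diet, and at -0.03 and -0.20 on the high-fat one. Dhdds, a subunit of the dolichol-making prenyltransferase, was above chow on all 4 arrays, from 0.14 to 0.29.

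Among genes that control SREBP 4 of 7 were measured and none passed (limma; 1 with an unadjusted p under 0.05). Srebf2, which encodes SREBP-2, stood between -0.16 and -0.04 on the 4 arrays. Srebf1, which encodes the factor of fatty acid synthesis, was above chow on all, from 0.20 to 0.89 (mean 0.48 ± 0.13; limma adjusted p = 0.059). Of 9 measured genes of 11 listed as other SREBP-2 targets none passed for diet over chow (limma; 2 with an unadjusted p under 0.05), with a median of -0.22. Fads2, a fatty acid desaturase, was higher with high fat by 0.89 ± 0.14 (limma adjusted p = 0.0217). Of 7 measured genes of sterol storage and efflux 2 rose, the partner subunits of the biliary sterol pump, Abcg5 (0.98 ± 0.12) and Abcg8 (0.79 ± 0.10). In the same list 1 fell, Cyp7a1, which starts the classical route to bile acids (-0.47 ± 0.10). Over all genes 6.27% rose and 5.8% fell. Of 4 listed genes of ketone and mitochondrial HMG-CoA metabolism 2 were measured, and neither passed (limma; none with an unadjusted p under 0.05): Acat1 stood at -0.29 ± 0.18 and Bdh1 at 0.12 ± 0.16.

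**Figure D5:**
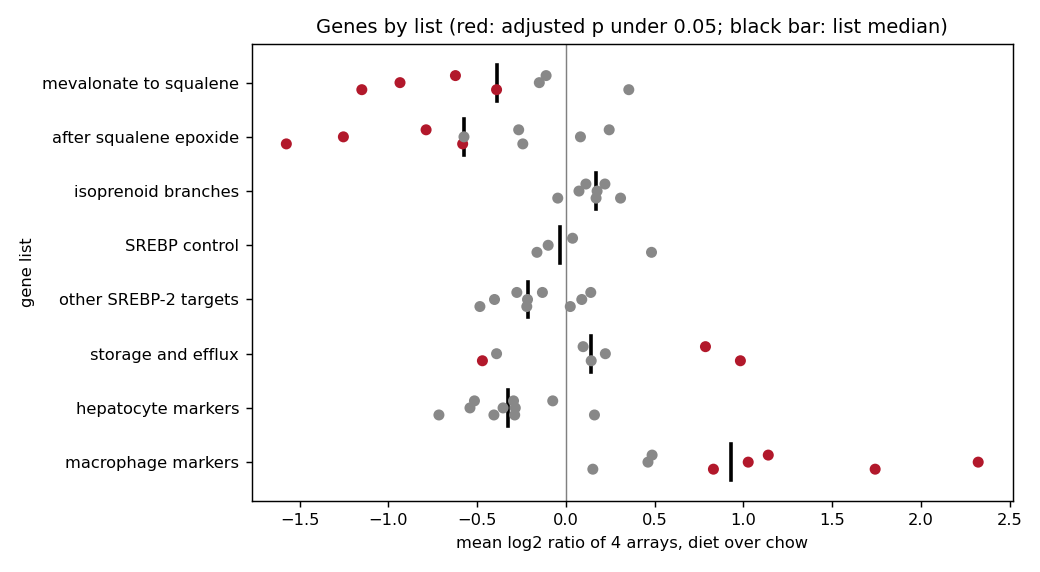
Mean log2 ratio of diet over chow over 4 arrays (horizontal axis) for the genes of 8 lists (vertical axis), 1 point for each gene, red for an adjusted p under 0.05, with a black bar at each list's median. The early enzymes have a median of -0.39 and the later ones of -0.57, while the isoprenoid branches lie at 0.17 and the macrophage markers at 0.93.

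Markers of liver cells moved as well, and their part in the results above was not tested. Of 10 measured hepatocyte markers none passed for diet over chow (limma; 2 with an unadjusted p under 0.05). Their median log2 ratio was 0.05 and 0.27 after 6 and 24 weeks of the plain diet and -0.73 and -0.64 with high fat, and values ranged from -1.53 to 0.86 over the arrays. For high fat 5 of the 10 were lower (Alb, Ttr, Serpina1a, Ass1 and Fgb), against 7.1% of all genes, and none was higher (limma; 2 higher with an unadjusted p under 0.05). The 4 markers above 0, which like Fdps had higher values with high fat, were Tat (0.72), Asgr1 (0.42), Apob (0.27) and Hnf4a (0.23), and none of them passed. The 5 lower markers shared nearly the same ratio on the high-fat 6-week array, from -1.35 to -1.28. On the high-fat 24-week array Alb, Ttr, Serpina1a and Fgb lay from -1.28 to -1.25, and Ass1 at -0.65. The cause of these shared values was not tested. Of 8 macrophage markers 5 rose and none fell, with medians from 0.67 to 0.93 on the 4 arrays. Of 7 stellate cell and fibroblast markers 5 rose. Of 4 lymphocyte markers 1 rose, Nkg7 (0.46 ± 0.11, limma adjusted p = 0.0414), while Cd3e, Cd79a and Ptprc did not pass. Over all genes 6.27% rose. Of 5 bile duct and 5 endothelial markers none passed for diet over chow (limma; 1 in each list with an unadjusted p under 0.05).

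For each early enzyme that fell, the genes with the most similar ratios were ranked among 13102 named genes by Euclidean distance over the 4 arrays, as a description only. Nearest to Idi1 were Dio1, the deiodinase that activates thyroid hormone (distance 0.37; -1.14 and -1.41 on the plain diet, -1.05 and -0.84 with high fat, each at 6 and 24 weeks), Slc22a19 (0.46) and the carboxylesterase Ces1f (0.51). Nearest to Fdps were Ndst4 (0.43), Ugt3a2 (0.50) and Atp6v1c2 (0.62). Nearest to Sqle were Slc22a13 (0.19), Sfrp5 (0.22) and Bysl (0.23). Nearest to Pmvk were Gbf1 (0.11), Psma8 (0.11) and Vmn1r75 (0.13).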

How the data were processed

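The deposited values are log10 ratios of Cy5 (diet) over Cy3 (chow), with the dyes taken per the labels. Slides (AceGene mouse oligonucleotide chips) were read with GenePix Pro 4.1 and LOWESS-normalized in GeneSpring 7.2 by the authors, per the series' design text. LOWESS removes dye differences that depend on intensity, not those of a single probe. The sources used here do not give the log base, further centring, background correction or filters on spots. Base 10 was inferred from the spread. The deposited log10 values had medians of -0.019 (plain, 6 weeks), 0.006 (high fat, 6 weeks), -0.005 (plain, 24 weeks) and 0.006 (high fat, 24 weeks).

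Values were converted to log2. Probes missing on any array (975 of 28845) were left out. Of all probes 17637 had 1 gene symbol, 64 had several and 11144 were not listed; symbols were updated by gene identifier through RefSeq, which did not match 252. A gene is the mean of its probes. Tests used limma 3.58.1 in R 4.3.3 (lmFit and eBayes, two-sided, Benjamini-Hochberg over 13544 genes): the mean of 4 arrays against 0, and an additive model of high fat and duration with 1 residual degree of freedom. With 1 array per condition, p-values reflect how much conditions, rather than animals, differ, and the number of arrays limits precision. Any chow sample shared by arrays would make the p-values of the mean against 0 too small. Sharing within a duration would also make those for duration too small, but it would cancel in high-fat minus plain. The members and gene lists were chosen with earlier results of these data known. Named were all 7 members, list genes past the threshold, a few list genes given as values, which were chosen after their values were seen, and the 3 nearest genes of each member that passed. Alternatives were centring, scaling, gene means, filters, features tested, robust eBayes, other models, other log bases and leaving out arrays.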

Additional observations from a re-analysis of the deposited data

Results flagged for a closer look

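Fdps differed between the diets: its ratio to chow was higher with high fat by 0.71 (log2, limma adjusted p = 0.0407), with -1.81 and -0.77 on the plain diet at 6 and 24 weeks and -0.86 and -0.30 with high fat, higher in 2 of 2 pairs. No other member met a rule for a closer look. Each condition had 1 array, so no array could be set against others of its own group.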

How the results depend on the processing

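Folds depend on the log base: the mean of Idi1, -1.15 with base 10, would be -0.35 if the deposited values were base 2 and -0.50 if they were natural logarithms. For diet over chow, 1634 genes passed, and 4447 with duration as a random block, 5132 with high-fat and duration terms, 2531 with unnamed probes added and 2880 with probes as features. Leaving out 1 array gave 284 to 1169 genes and 0 to 3 of the 7 members. For high fat, 1466 genes passed, 3893 with unnamed probes added, 4411 with probes as features and 0 without the duration term. Members called for high fat went from 1 to 0 with arrays scaled to a common spread and without the duration term. Pmvk lost its call for diet over chow with array medians subtracted (adjusted p = 0.0519), unnamed probes added (0.0531), the probe with the largest ratio (0.0506) and probes as features (0.0556). Signs reversed for uncalled differences near 0: with array medians subtracted, Idi1 for duration (-0.00997) and Pmvk (-0.0399) and Sqle (-0.0249) for high fat; with arrays scaled, Pmvk (-0.16) and Sqle (-0.23) for high fat. Single pairs also had the opposite sign to the average for Idi1 (plain diet, -0.46) and Sqle (high fat, 0.19) for duration, and for Sqle (6 weeks, -0.26), Pmvk (6 weeks, -0.08) and Mvk (24 weeks, 0.01) for high fat. The causes were not tested. The labels give no replicate numbers, so arrays were paired only by duration and diet, as in the additive model. Leaving out an array leaves that model no residual, so the differences within pairs stand as values. No spot intensities were used here, so signal over background is unknown.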
